A study of Mus musculus with 30 samples.

Results

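Untreated-only regions are stretches of chromatin that were called enriched for H3K9me3 in at least 2 of 3 untreated ChIP-seq libraries and in none of 3 libraries treated with doxycycline (DOX). They were chosen by the deposited calls themselves: the regions of all 6 lists were merged wherever they shared at least 1 bp on chromosomes 1 to 19, and 802 of 44431 merged regions (1.81%) met the rule. Because the calls selected them, their calls, lengths and enrichment are given here as a description with no test. The untreated libraries carry the labels EB-noTreat1, EB-noTreat2 and EB-noTreat3 and are called untreated 1, 2 and 3. The DOX libraries are EB-DOX-D2, EB-DOX-D3 and EB-Er71-Flag-DOX-D2, called DOX 1, 2 and 3; they differ in D2 or D3 and in the Er71-Flag name, and the labels do not define these codes. All 6 are labelled as mouse embryonic stem cells, with no cell line named. RNA was sequenced in 18 libraries in groups of 3. One comparison set DOX against control in the line iETV2, and another set DOX against control in the line iETV2-KDM4A (H188A). The last set KDM4A/4C DKO cells, which lack KDM4A and KDM4C by their label, against controls of that experiment, with no DOX in their labels. The promoter that drives the transgenes and the number of clones per line are not given in the labels, nor is it stated that the 3 libraries of a group came from separate cultures, so p-values measure the spread between these libraries only.

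H3K9me3 is histone H3 carrying 3 methyl groups on lysine 9. It marks silent heterochromatin and is laid down by SETDB1, guided by TRIM28 and KRAB zinc finger proteins, and by SUV39H1 and SUV39H2. It covers pericentromeric repeats, retrotransposons and clusters of copied genes such as olfactory receptor and zinc finger genes. KDM4A, KDM4B and KDM4C are demethylases that remove it. KDM4A with the H188A substitution is known as a catalytically inactive form. ETV2 (ER71) is an ETS transcription factor that drives mesoderm toward blood and endothelium, and the study's title links it to KDM4A.

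The sequences under the regions themselves could not be read because no genome was used here, but promoters that lay inside them could. Of 31396 RefSeq promoter windows on chromosomes 1 to 19 (250 bases before to 50 after a gene start, GRCm38.p6), 50 windows of 49 genes overlapped an untreated-only region. The windows of 6 genes are printed below from 250 bases before the start up to the start, because the clusters and RNA results described further on turn on these genes. Capitals mark the ETS core CCGGAA and the TATA box TATAAA, each searched on both strands, so that TTCCGG is the ETS core on the other strand. Neither motif overlaps the other.
Krtap4-8 (chr11:99780644-99780893, minus strand): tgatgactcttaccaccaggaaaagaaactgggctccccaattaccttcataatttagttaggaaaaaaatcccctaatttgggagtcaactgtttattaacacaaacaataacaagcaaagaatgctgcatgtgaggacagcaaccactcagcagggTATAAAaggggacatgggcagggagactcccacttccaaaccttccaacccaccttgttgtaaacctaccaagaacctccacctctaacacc
Krtap4-9 (chr11:99784950-99785199, plus strand): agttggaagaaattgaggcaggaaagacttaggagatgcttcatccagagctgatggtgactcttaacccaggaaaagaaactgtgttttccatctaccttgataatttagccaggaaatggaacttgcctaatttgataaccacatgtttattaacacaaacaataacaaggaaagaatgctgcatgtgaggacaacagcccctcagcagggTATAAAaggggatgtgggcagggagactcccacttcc
Krtap9-5 (chr11:99948174-99948423, plus strand): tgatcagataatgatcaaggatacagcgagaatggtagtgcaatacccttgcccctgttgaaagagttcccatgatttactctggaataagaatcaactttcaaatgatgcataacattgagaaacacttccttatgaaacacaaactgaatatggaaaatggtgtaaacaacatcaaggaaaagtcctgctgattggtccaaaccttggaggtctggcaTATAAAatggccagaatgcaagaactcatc
Mkrn3 (chr7:62420154-62420403, minus strand): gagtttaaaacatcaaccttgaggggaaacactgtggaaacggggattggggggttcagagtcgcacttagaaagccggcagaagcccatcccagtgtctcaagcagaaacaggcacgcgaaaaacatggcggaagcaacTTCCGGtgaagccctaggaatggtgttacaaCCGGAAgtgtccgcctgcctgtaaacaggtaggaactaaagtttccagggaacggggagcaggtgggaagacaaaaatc
Nlrp4c (chr7:6044911-6045160, plus strand): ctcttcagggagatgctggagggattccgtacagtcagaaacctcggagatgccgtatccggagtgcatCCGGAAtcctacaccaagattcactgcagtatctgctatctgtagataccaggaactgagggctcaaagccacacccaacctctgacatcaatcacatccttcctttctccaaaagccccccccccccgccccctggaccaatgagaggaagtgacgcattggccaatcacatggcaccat
Gm14393 (chr2:175067770-175068019, minus strand): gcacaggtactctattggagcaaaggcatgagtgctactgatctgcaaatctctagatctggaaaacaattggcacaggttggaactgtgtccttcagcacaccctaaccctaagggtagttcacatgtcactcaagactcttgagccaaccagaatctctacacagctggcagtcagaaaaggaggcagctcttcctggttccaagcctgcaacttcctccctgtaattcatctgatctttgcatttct

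Promoters under untreated-only regions were poor in G, C and CpG. Their median GC content was 43.0% against 52.4% over all promoters, and their median number of CpG dinucleotides was 1 against 6, both counted in the 250 bases before the start. Promoters under regions called in all 6 libraries had a median GC content of 46.0% and 2 CpG. In the same 250 bases, TATAAA was present in 16 of 50 windows (32.0%), compared with 12.4% of all promoters, 19.2% of those under regions called in all 6 libraries and 14.6% of 41 under DOX-only regions. The windows with TATAAA included those of Gm11595, Krtap4-6, Krtap4-8, Krtap4-9, Krtap4-16 and Krtap9-5, which lie together on chromosome 11, and that of Krtap6-3. Similar neighbouring genes thus weigh on this share, and the windows are not independent. CCGGAA was present in 5 of 50 windows (10%) and in 12.2% of all promoters. A match describes these letters in these windows only.

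The number of untreated-only regions depended on the libraries. Of the 802 regions, 132 were called in all 3 untreated libraries and 670 in exactly 2, with 385 of the latter called in untreated 2 and 3 but not in untreated 1. The reverse set, called in at least 2 DOX libraries and no untreated library (DOX-only regions), held 2424 regions, and 17339 regions were called in all 6 libraries. DOX 1 had the longest list with 50838 regions, against 37129 to 46044 in the other 5. Without DOX 1, 2152 regions would have met the untreated-only rule and 763 would have been DOX-only. The untreated-only number was 1150 without DOX 2 and 1090 without DOX 3. It was 529, 317 and 286 without untreated 1, 2 and 3, where both remaining untreated libraries had to carry a call.

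**Figure D1:**
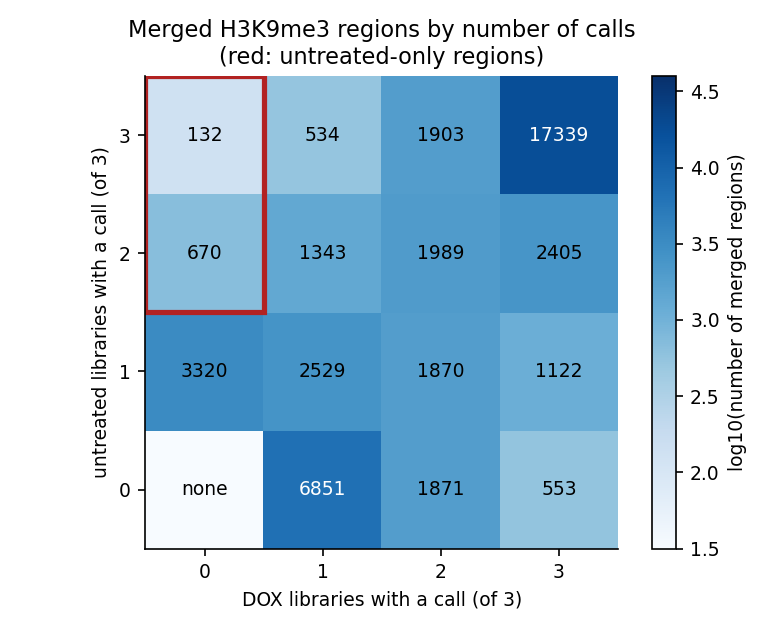
Number of merged regions on chromosomes 1 to 19 by the number of untreated libraries (y axis, 0 to 3) and DOX libraries (x axis, 0 to 3) with a call; the colour is the log10 of the number and the red frame holds the 132 and 670 untreated-only regions. The cell for all 6 libraries holds 17339 regions, and regions called in 1 library alone number 6851 for DOX and 3320 for untreated.

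Sharing among the untreated libraries was set beside sharing among other sets of libraries, as counts only. Regions called in exactly 2 libraries numbered 116 to 841 over the 15 possible pairs, with a median of 196. The untreated pairs held 385, 147 and 138 of these, and the DOX pairs held 841, 834 and 196. Regions called in exactly 3 libraries numbered 49 to 553 over the 20 possible trios, with a median of 149. The untreated trio, at 132, ranked 11 among the 20, and the DOX trio, at 553, ranked 1. The mixed trio of untreated 2, untreated 3 and DOX 1 held 504. A pattern of calls shared by the 3 untreated libraries alone was thus no more frequent than the middle of these trios.

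Most untreated-only regions were short and moderately enriched. Their merged length had a median of 3800 bp (quartiles 2800 and 5000, range 200 to 21000), compared with 7600 bp for regions called in all 6 libraries and 3000 bp for DOX-only regions, and together they covered 3.29 Mb. The ratio of ChIP to input reads, averaged over the untreated libraries with a call, had a median of 2.17 (range 1.29 to 10.5), and 328 regions had a ratio of at least 2 in every library that called them. The medians per call were 131 ChIP and 75 input reads in untreated 1, 146 and 66 in untreated 2, and 97 and 44 in untreated 3. Among calls of 2 to 6 kb, where length is held within one range, the median deposited log2 fold change of ChIP over input was 0.77, 0.93 and 0.95 in untreated 1, 2 and 3. Regions called in all 6 libraries had 0.99, 1.07 and 1.10 in the same libraries and length range. The deposited log2 fold change is the log2 ratio minus a constant of each library.

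**Figure D2:**
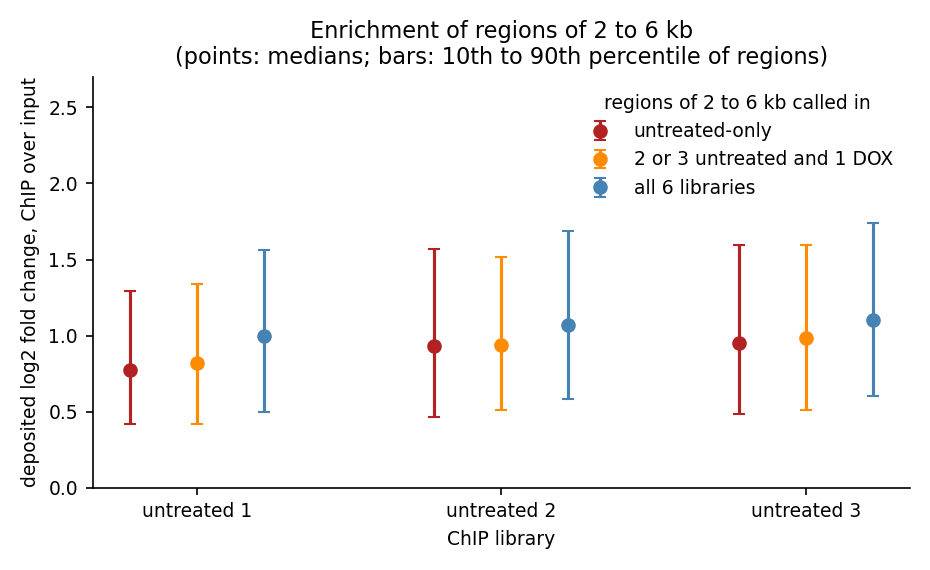
Deposited log2 fold change of ChIP over input (y axis) of calls of 2 to 6 kb in each untreated library (x axis); points are medians and bars run from the 10th to the 90th percentile over regions. Untreated-only regions (red) have medians of 0.77, 0.93 and 0.95, close to regions also called in 1 DOX library (orange, 0.82, 0.94 and 0.99) and below regions called in all 6 libraries (blue, 0.99, 1.07 and 1.10).

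The values just outside the rule were as follows. The 1877 regions called in 2 or 3 untreated libraries and in 1 DOX library had a median length of 4000 bp, and the 3320 called in 1 untreated library alone had one of 2600 bp. A promoter window was overlapped by 2.66% of the former and 2.59% of the latter, against 5.99% of untreated-only regions. Within the rule, the least certain call of a region had a median false discovery rate (FDR) of 5.36e-08, and in 123 regions (15.3%) it was over 0.001. In untreated 1, 11.2% of calls in untreated-only regions had an FDR over 0.001, against 3.84% of all its calls. Many of the regions also lay beside chromatin that was called with DOX. The gap to the nearest region of any DOX library had a median of 10100 bp, was at most 5000 bp for 285 regions (35.5%) and at most 1000 bp for 63, and 100 regions were over 50 kb away. Leaving out the 285 left 517.

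The longest untreated-only region was chr7:5674601-5695600, 21000 bp over Vmn1r62, a vomeronasal (pheromone) receptor gene, and the pseudogene Gm3440. It had 869 ChIP and 181 input reads in untreated 2 (ratio 4.80) and 693 and 158 in untreated 3 (4.39), and a DOX region began 1200 bp away. The next longest was chr5:11042401-11056200 (13800 bp over Gm8871 and Gm8874), called in all 3 untreated libraries at ratios of 1.19, 1.92 and 1.78. It was followed by chr13:61595201-61607600 (12400 bp, no gene), called in all 3 at 2.00, 2.41 and 2.72. A pair on chromosome 4 completes the 5 longest, namely chr4:144665201-144677400 (12200 bp over Aadacl4fm4) at 2.12 and 3.26 in untreated 2 and 3, and chr4:144279201-144291000 (11800 bp over Pramel5, of a gene family expressed in germ cells and early embryos) at 2.21 and 1.89. Of these 5, 3 lacked a call in untreated 1.

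The regions of highest ratio rested on few input reads. The highest was chr12:18420601-18424200, with 142 ChIP and 11 input reads in untreated 2 (ratio 12.9) and 128 and 16 in untreated 3 (8.0). It was followed by chr7:21864801-21867600 at 7.53 and 8.44 from 19 and 9 input reads. The region chr15:55159601-55161200 lay in the gene span of Deptor, which encodes an inhibitor of the mTOR kinase, and had ratios of 11.5 and 3.82 in untreated 2 and 3. The last pair, chr12:22490001-22493000 and chr12:23882601-23885600, had mean ratios of 7.44 and 7.41. In chr12:22490001-22493000, the ratio was 3.47 and 3.84 in untreated 1 and 2 but 15.0 in untreated 3, from 45 ChIP and 3 input reads, so its mean was set by 1 library.

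Untreated-only regions were spread unevenly over the chromosomes. They made up 3.66% of the merged regions of chromosome 7 (92 regions), 3.08% of those of chromosome 5 (85 regions) and 2.90% of those of chromosome 19 (24 regions). The lowest shares were 0.942% on chromosome 14 (20 regions) and 0.966% on chromosome 1 (43 regions). DOX-only regions did not have this order: they made up 4.38% of the merged regions of chromosome 7 and 4.88% of those of chromosome 1.

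**Figure D3:**
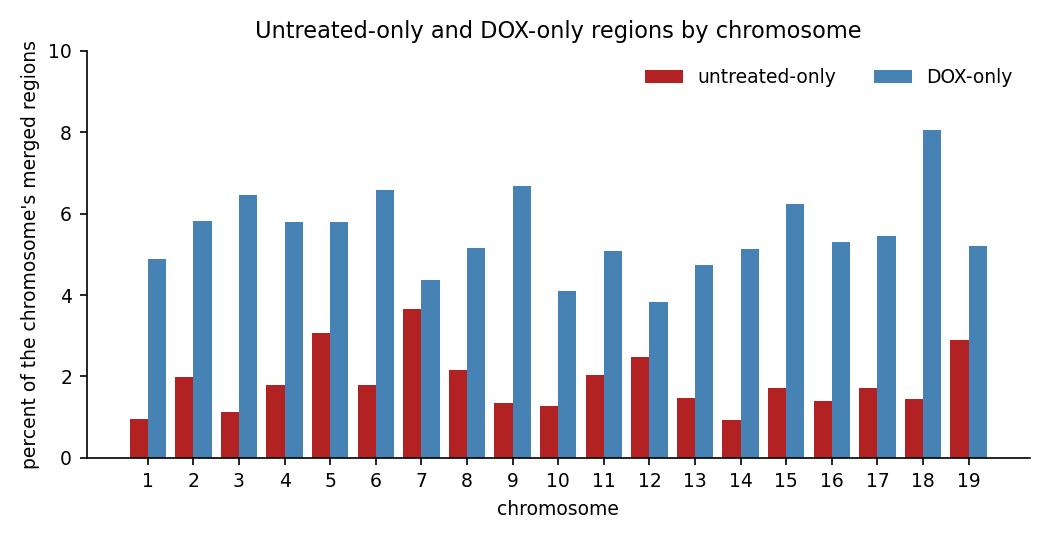
Percent of each chromosome's merged regions (y axis) that were untreated-only (red bars) or DOX-only (blue bars), for chromosomes 1 to 19 (x axis). Untreated-only shares run from 0.942% on chromosome 14 to 3.66% on chromosome 7, and DOX-only shares are highest on chromosome 18 at 8.06%.

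Some of these regions lay in clusters. Grouping untreated-only regions that lay at most 200 kb apart, a rule set after their positions were seen, gave 14 clusters of at least 4 regions. These held 77 untreated-only regions among 288 merged regions, with 1 DOX-only region among them, and 4 of the clusters were on chromosome 7. The largest, chr7:21278401-22077800, held 10 untreated-only regions among 48 merged regions in a domain of vomeronasal receptor genes (Vmn1r130 and Vmn1r138 among them). Their mean ratios ran from 3.36 to 7.99, and 9 of the 10 were called in untreated 2 and 3 only. Its neighbour chr7:23090601-23514200 held 5 more, near Vmn1r167 and Nlrp5, a maternal-effect gene of the oocyte. On chromosome 12, chr12:18420601-18587200 held 6, of which 5 were called in untreated 2 and 3 only. The protocadherin beta domain on chromosome 18 (chr18:37288401-37620400, with Pcdhb2, Pcdhb9, Pcdhb10, Pcdhb11 and Pcdhb12 within 5 kb) held 4, of which 2 were called in all 3 untreated libraries. Protocadherins are adhesion molecules of neurons. These regions lay beside the genes with a Pcdhb symbol, not over them. They did lie inside the long protein-coding gene spans Gm37013, Gm38666 and Gm38667, each overlapped by 4 untreated-only regions.

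The chromatin around these clusters was measured in every library through the neighbouring regions that all 6 libraries called. In the domain chr7:21278401-22077800, 14 such neighbours had a median log2 fold change of 1.72, 2.03 and 2.07 in untreated 1, 2 and 3 and of 1.92, 1.82 and 1.61 in DOX 1, 2 and 3. The ranges of the groups overlapped. These neighbours were chosen because every library called them, so they do not give the level of H3K9me3 where DOX calls were missing. Input reads per kb in these neighbours, relative to all shared regions of the same library, were 0.525, 0.483 and 0.464 untreated and 0.496, 0.507 and 0.546 with DOX. In chr12:18420601-18587200, 4 such neighbours had 1.97, 1.92 and 2.04 untreated and 1.82, 1.80 and 1.60 with DOX, and relative input of 0.478, 0.469 and 0.431 untreated and 0.513, 0.514 and 0.631 with DOX. There every untreated library was above every DOX library in fold change and below it in input. The part of input in the missing calls was not tested. Vomeronasal receptor genes are similar copies, and the sources used here do not give how reads that match several copies were placed, so the position of such calls is uncertain.

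The cluster with the most agreement among untreated libraries lay over keratin-associated protein genes on chromosome 11. Keratin-associated proteins cross-link keratin filaments in hair, and their small genes stand in tight clusters. In chr11:99664001-99949800, 5 of 6 untreated-only regions were called in all 3 untreated libraries, and no region there was DOX-only. Over Krtap4-6 the ChIP to input ratio was 2.27, 2.77 and 2.56 in untreated 1, 2 and 3. Over Krtap4-8, whose TATA-bearing promoter is printed above, it was 4.11, 2.18 and 1.91. Over Krtap4-9 it was 1.85, 3.06 and 6.70, the last from 67 ChIP and 10 input reads. Over Krtap9-5 it was 2.88, 5.24 and 1.90, and over Gm11595 it was 2.74, 3.02 and 2.76. The region over Krtap4-16 was called in untreated 1 and 2 at 2.94 and 4.19 and not in untreated 3. Which library gave the highest ratio differed from gene to gene. Of 13 merged regions over any Krtap gene on chromosomes 1 to 19, 6 were untreated-only, 2 were called in all 6 libraries and none was DOX-only; the sixth lay over Krtap6-3 on chromosome 16. The 4 shared neighbours in the chromosome 11 cluster had relative input of 1.43 to 1.46 untreated and 1.51 to 1.56 with DOX, where the groups did not overlap, and log2 fold changes of 0.73, 0.94 and 0.81 untreated and 0.82, 0.64 and 0.72 with DOX, where they did. RNA of Krtap4-6, Krtap4-8, Krtap4-9, Krtap4-16 and Krtap9-5 was nearly absent in every experiment: no gene had more than 5 counts summed over the 6 libraries of a comparison.

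A second group of untreated-only regions lay in the imprinted interval from Snrpn to Mkrn3 on chromosome 7 (chr7:59982495-62420153). Snrpn and Mkrn3 are expressed from the paternal copy, and loss of the paternal interval in humans causes Prader-Willi syndrome. The interval held 18 untreated-only regions of 137 merged regions (13.1%), 1 DOX-only region and 25 regions called in all 6 libraries. Untreated-only regions were 1.81% of all merged regions and 3.66% of those of chromosome 7, where DOX-only regions were 4.38%. The interval was chosen after the positions of the regions were seen and ends at one of them, so these shares are a description and not a test. None of the 18 was called in all 3 untreated libraries: 17 were called in untreated 2 and 3, and 1 in untreated 1 and 2. Of the 18, 9 formed the cluster chr7:60805601-61249200, where mean ratios ran from 2.02 to 2.89 and 4 regions lay in the long noncoding RNA gene A230006K03Rik. Within Snrpn and the overlapping noncoding gene Snhg14, chr7:60093801-60102800 had ratios of 2.68 and 2.78 and chr7:60148801-60155400 had 1.89 and 2.14 in untreated 2 and 3. At the far end, chr7:62418401-62421000 covered the printed Mkrn3 promoter, with 129 ChIP and 53 input reads in untreated 2 (2.43) and 96 and 48 in untreated 3 (2.00). Mkrn3 encodes a RING finger protein that restrains the onset of puberty. In 17 of the 18 regions the call was thus missing in untreated 1 as well as in the DOX libraries, unlike in the Krtap cluster.

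Among regions called in all 3 untreated libraries, 51 of 132 overlapped a protein-coding gene, and the 10 longest of these included receptors and oocyte genes. The longest lay over Vmn1r229 (chr17:20813001-20823600), at ratios of 1.80, 1.96 and 2.28 in untreated 1, 2 and 3. Over Vipr2, a receptor for vasoactive intestinal peptide, chr12:116115801-116126000 had 1.99, 3.11 and 3.13. Over Klrk1, a natural killer cell receptor gene, chr6:129606601-129615600 had 1.64, 1.59 and 2.06. Over Nlrp4c, an NLR family gene expressed in oocytes, chr7:6040201-6047600 had 1.72, 1.88 and 2.88. In the span of Farp1, chr14:121082201-121090000 had 1.45, 2.08 and 2.05. In that of Sh3rf3, chr10:58877401-58884600 had 1.54, 4.67 and 2.25. Ratios over Gm14305, Vmn2r105, Pramel30 and Gm37013 lay between 1.72 and 2.7. Untreated 1 gave the lowest ratio in 8 of these 10 regions, and its median ratio over all calls, 1.93, was below those of untreated 2 (2.43) and untreated 3 (2.39). These are raw ratios. The library constant in the deposited log2 fold change was -0.01, 0.26 and 0.17 in untreated 1, 2 and 3. After it was taken off, the median log2 fold change over all calls was 0.96, 1.02 and 1.09, so raw ratios should not be compared between libraries.

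Genes were more frequent under untreated-only regions than under merged regions at large. Of the 802, 380 (47.4%) overlapped a gene, compared with 38.4% of all merged regions, 38.9% of those called in all 6 libraries and 36.6% of DOX-only regions. The share was 42.7% for regions called in 1 untreated library alone. It was 39.8% for those called in 2 or 3 untreated libraries and 1 DOX library. A promoter window was overlapped by 48 (5.99%), against 3.13% of all merged regions, 5.03% of those called in all 6 and 1.65% of DOX-only regions. Promoters per Mb covered were 15.2 for untreated-only regions, and 6.45, 6.72 and 5.15 in the same order. The sets called in 1 untreated library alone, or in 2 or 3 untreated and 1 DOX library, had 10.2 and 6.30 per Mb. Olfactory and vomeronasal receptor genes, pseudogenes included, were overlapped by 21 (2.62%), against 1.29% of all merged regions. The share was 1.93% of regions called in all 6 libraries and 1.57% of those called in 1 untreated library alone. Zinc finger genes (Zfp, Zkscan and Zscan) were overlapped by 7 (0.873%), against 0.621% of all merged regions and 0.929% of those called in all 6. Pramel genes were overlapped by 4 (0.499%), against 0.054% and 0.058% in the same order. Genes whose whole span, widened by 5 kb on each side, met an untreated-only region numbered 573. Of these, 389 overlapped a region directly, so long genes weigh in this set. By type, 332 were protein-coding, 133 long noncoding and 98 pseudogenes. The annotation gives gene spans, so exons and introns were not told apart. No region lay within 5 kb or within 50 kb of the 46 of 47 blood and endothelial genes that had a position, or of the 26 of 28 genes that write, read or erase H3K9 methylation. Regions of any kind lay within 5 kb of 13 of the former and 9 of the latter. Of all 47042 genes with a position, 573 lay within 5 kb of an untreated-only region and 2139 within 50 kb. At those shares few genes of lists this short would lie near such a region, so nothing is read from their absence. Of the markers of embryonic stem cells, mesoderm, endothelium, blood, neuroectoderm, endoderm and fibroblasts, only T, the mesoderm factor brachyury, lay within 50 kb, and none within 5 kb.

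RNA was measured in cells whose relation to the ChIP cells is not given in the labels, so RNA and ChIP are set side by side and not joined by sample. Libraries held 40334911 to 68970038 counts. Etv2 rose with DOX in iETV2, from 2.73, 3.02 and 3.05 CPM (counts scaled to the library total) to 19.7, 18.1 and 18.2, and in the H188A line from 0.669, 0.139 and 0.319 to 11.5, 18.6 and 15.5. Kdm4a did not change beyond the spread with DOX in either line (log2 change 0.05 ± 0.07 SE and 0.11 ± 0.05, adjusted p 0.710 and 0.262 by edgeR's quasi-likelihood test). In the libraries labelled DKO, Kdm4a fell from 53.9, 54.4 and 55.7 CPM to 42.9, 46.9 and 42.0, and Kdm4c rose from 30.2, 32.2 and 29.6 to 48.0, 42.7 and 46.0. Gene-level counts therefore do not show the loss of either gene, and a deletion of part of a gene cannot be checked from them. In bulk RNA, fewer cells of a type and less RNA per cell cannot be told apart.

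Genes near untreated-only regions changed in both directions with DOX in iETV2. Of 573 genes within 5 kb, 463 were in the count tables and 245 passed the low-count filter. Of these 245, 98 changed (40%), 50 upward and 48 downward, where 27% of all 22025 genes tested changed (13.7% rose and 13.3% fell; edgeR's quasi-likelihood test, Benjamini-Hochberg adjusted p under 0.05), and 29.5% of those with a position. Their median log2 change was 0.03, against 0.00 over all genes. Genes near regions called in all 6 libraries changed in 31.2% and those near DOX-only regions in 37.1%. Genes near regions called in all 3 untreated libraries changed in 18 of 46 (39.1%). A higher share than the background was thus found near DOX-only regions too, and the direction was even.

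**Figure D4:**
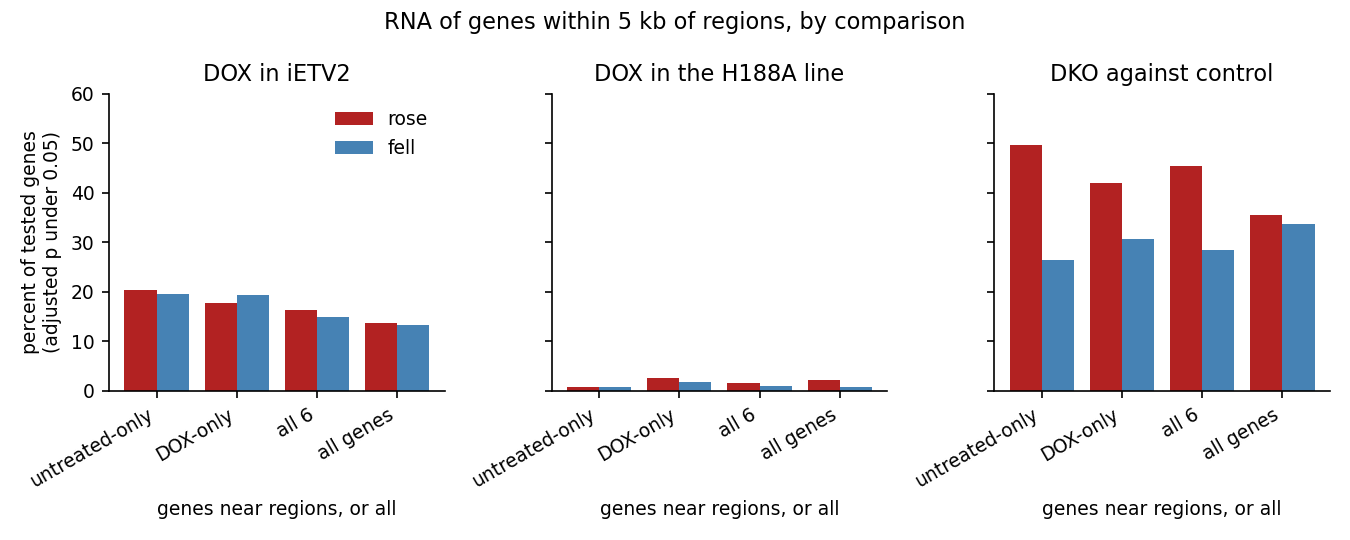
Percent of tested genes that rose (red) or fell (blue) at adjusted p under 0.05 (y axis) in each RNA comparison (panels), for genes within 5 kb of untreated-only, DOX-only and shared regions and for all genes tested (x axis). Of genes near untreated-only regions, 111 of 224 were higher and 59 lower in DKO, against 50 and 48 of 245 for DOX in the iETV2 line.

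The largest rise was that of Col14a1, the gene of collagen XIV, with an untreated-only region (chr15:55400201-55403600, called in untreated 1 and 3) inside its span. It went from 1.79, 1.59 and 1.46 CPM in controls to 13.5, 12.3 and 14.6 with DOX, a log2 change of 3.06 ± 0.13 (SE, adjusted p = 4.91e-11, edgeR). The libraries of the groups were far apart. Tex14, needed for the bridges between dividing germ cells, had a region 1978 bp from its end and went from 2.85, 3.09 and 2.47 CPM to 11.2, 9.21 and 9.65 (1.84 ± 0.14). Scube1, a secreted protein gene of endothelium and platelets, rose by 1.65 ± 0.14, and Itpr2, an intracellular calcium channel gene, by 1.11 ± 0.07. Lcp1, the actin-bundling plastin of blood cells, went from 20.1, 16.8 and 18.6 CPM to 35.9, 35.4 and 37.8 (0.99 ± 0.08). Zc3hav1, an antiviral zinc finger gene, rose by 0.98 ± 0.08, Tmem132c by 1.01 ± 0.12 and Tmem229b by 1.27 ± 0.15.

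The largest fall was that of Slit1, which encodes an axon guidance ligand and held the region chr19:41730201-41732000 (called in untreated 1 and 2). It went from 34.1, 34.2 and 35.2 CPM to 8.65, 7.50 and 9.34, a log2 change of -2.01 ± 0.09 (adjusted p = 4.77e-11, edgeR). Cdh13, the gene of T-cadherin, held 3 untreated-only regions in its span and went from 11.1, 12.1 and 12.1 CPM to 3.97, 3.81 and 4.47 (-1.52 ± 0.11). Snhg14, which held 3 regions called in untreated 2 and 3, went from 77.1, 88.6 and 85.2 CPM to 42.6, 44.6 and 41.6 (-0.95 ± 0.07). Snrpn, which shares 2 of these regions and overlaps it, changed by -0.89 ± 0.07. Without a stated strand setting their reads cannot be told apart. Gli2, a transcription factor of Hedgehog signalling, changed by -0.91 ± 0.08, A2m by -1.49 ± 0.20, Thsd7a by -1.20 ± 0.09, Gal3st3 by -1.05 ± 0.17 and Slc35f1 by -1.04 ± 0.15. That no control library overlapped a DOX library was required by the rule for naming genes, so it is not a further result. Genes that held an untreated-only region thus fell as well as rose. Over the same libraries, the summed level of 4 endothelial markers went from 15.1 to 18.2 CPM in controls to 361 to 372 with DOX, that of 3 blood markers from 3.50 to 5.14 to 116 to 138, and that of 3 neuroectoderm markers from 144 to 147 to 59.5 to 60.7. The part of these cell type changes in the results above was not tested.

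In the H188A line few genes near untreated-only regions changed with DOX. Of 244 tested, 4 changed (1.64%), 2 upward and 2 downward, where 3.02% of all genes did (2.22% rose and 0.801% fell). DESeq2 called 8 (2.90%, against 4.13% of all genes), and 56 of 244 had an unadjusted p under 0.05, as did 4746 of all 21086. Sh2b2, an adaptor of receptor tyrosine kinases with a region 1347 bp away, went from 5.65, 4.96 and 4.54 CPM to 7.53, 8.01 and 6.76 (log2 change 0.61 ± 0.12, adjusted p = 0.0318, edgeR). Farp1, whose region was called in all 3 untreated libraries, went from 77.6, 83.4 and 79.8 CPM to 90.5, 95.9 and 95.8 (0.28 ± 0.05, adjusted p = 0.0305). Cracr2a, a calcium channel regulator gene, went from 4.29, 3.72 and 3.26 CPM to 2.30, 2.2 and 2.08 (-0.73 ± 0.16, adjusted p = 0.0492). The calls of these genes were not stable to leaving out libraries, while their log2 changes stayed between 0.57 and 0.69 for Sh2b2, 0.23 and 0.32 for Farp1 and -0.79 and -0.64 for Cracr2a. The count of 4 became 1, 0 and 29 without control 1, 2 and 3 and 7, 0 and 0 without DOX 1, 2 and 3, and 0 with the replicate number as a block. Col14a1 did not pass the test in this line (-1.13 ± 0.54), with 3.62, 1.10 and 0.754 CPM in controls and 0.788, 0.979 and 0.612 with DOX. Slit1 had 4.26, 2.94 and 3.28 CPM and 1.95, 2.12 and 1.45 with DOX (-0.88 ± 0.21, adjusted p = 0.0578). The difference between the lines was not tested.

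In the libraries labelled DKO, genes near untreated-only regions changed more often upward than downward. Of 224 tested, 170 changed (75.9%), 111 upward (49.6%) and 59 downward (26.3%), where 69.3% of all 20426 genes changed, 35.6% upward and 33.7% downward. Of the 16730 tested genes with a position in the annotation, from which genes near regions are drawn, 33.4% rose and 38.3% fell. The median log2 change of genes near untreated-only regions was 0.28, against 0.04 over all genes and -0.04 over those with a position. Near regions called in all 3 untreated libraries, 33 of 42 genes changed and 26 of them rose, with a median log2 change of 0.72. Genes near regions called in all 6 libraries also leaned upward (45.3% rose and 28.5% fell, median 0.21), as did those near DOX-only regions (42.0% and 30.7%, median 0.18). An upward lean was therefore not limited to genes near untreated-only regions. Some genes that rose were nearly absent in controls, such as Gm38509 at 0.0719, 0.0196 and 0 CPM, and passed the low-count filter through the DKO libraries. Such genes could only be called higher, and genes nearly absent in DKO only lower. Their part in these counts and medians was not measured. These libraries differed in cell type markers as well. The summed level of 6 embryonic stem cell markers was 39.0 to 43.2 CPM in controls and 1006 to 1058 in DKO, that of 3 blood markers 629 to 642 and 7.63 to 8.15, and that of 4 endothelial markers 540 to 548 and 120 to 124. The part of these differences in the results near untreated-only regions was not tested.

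Of the genes that rose most in DKO, all but Cldn4 had at most 1.53 CPM in any control library. Dmrt1, a transcription factor of the testis and germ line, held chr19:25532201-25539200 and went from 0.772, 0.608 and 0.870 CPM to 19.7, 19.3 and 18.9 (log2 change 4.54 ± 0.12, adjusted p = 1.39e-18, edgeR). Cldn4, a tight junction gene 3923 bp from a region called in all 3 untreated libraries (chr5:134938001-134941200, ratios 1.37, 1.85 and 2.21), went from 9.41, 11.5 and 12 CPM to 179, 170 and 179 (3.88 ± 0.06). Cyp4f39, an omega-hydroxylase gene of skin lipids, rose by 4.25 ± 0.33. With 0.0719, 0.118 and 0.395 CPM in controls, it passed the low-count filter through the DKO libraries, and its log2 change was 5.32 without control 3. Pou2f2, the gene of the POU factor OCT2, rose by 3.85 ± 0.15, and Rimbp2, a synaptic scaffold gene with a region called in all 3 untreated libraries, by 3.73 ± 0.18. Kif26b, a kinesin family gene, fell furthest, from 41.7, 40.2 and 40.5 CPM to 4.19, 4.31 and 3.54 (-3.47 ± 0.08). Tmem132c changed by -2.05 ± 0.13, Stard13 by -1.59 ± 0.09, Col26a1 by -1.44 ± 0.14 and the RNA-binding protein gene Igf2bp3 by -1.40 ± 0.04. Farp1, called in all 3 untreated libraries, went from 125, 113 and 120 CPM to 64.4, 66.1 and 63.6 (-1.01 ± 0.04), so a gene over such a region could fall as well. Snhg14 went from 39.0, 39.6 and 39.4 CPM to 74.4, 80.4 and 77.3 (0.85 ± 0.05), and Snrpn changed by 1.40 ± 0.06.

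**Figure D5:**
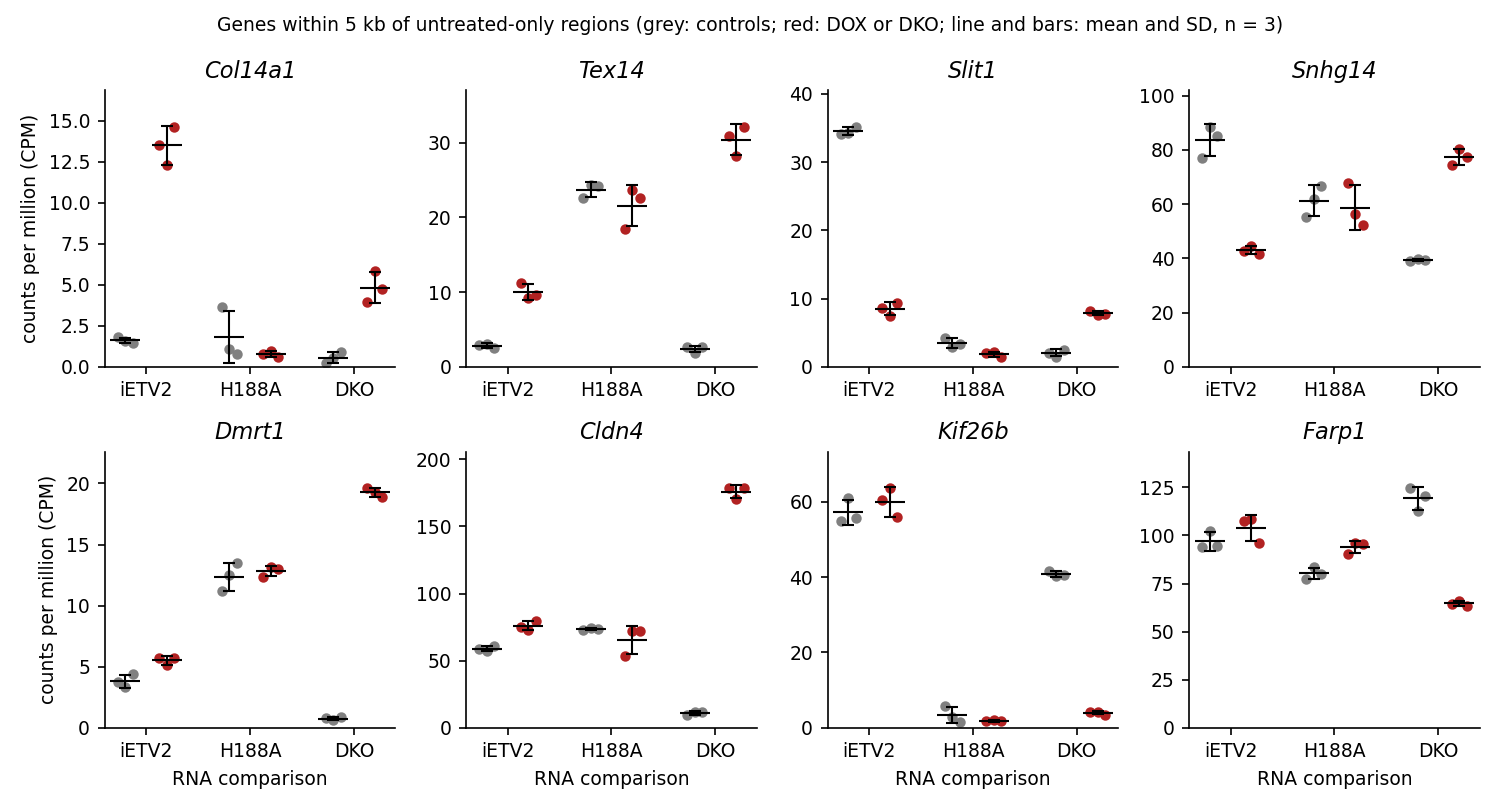
CPM, counts scaled to the library total (y axis), of 8 genes within 5 kb of untreated-only regions in every RNA library of the 3 comparisons (x axis); grey points are controls, red points are DOX or DKO libraries, and lines with bars are mean and SD (n = 3). Col14a1 rises and Slit1 falls with DOX in iETV2, while Dmrt1 and Cldn4 rise and Kif26b and Farp1 fall in DKO.

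Of the 49 genes with a promoter under an untreated-only region, 38 were in the count tables. The low-count filter was passed by 6, 5 and 4 of these in the iETV2, H188A and DKO comparisons. Of all 55487 genes in the tables, 22025, 21086 and 20426 passed it. At most 10 counts over the 6 libraries were found for 20, 14 and 29 of the 38. The same shares for all genes and for promoters under other regions were not counted. In DKO 4 passed the low-count filter and were called higher, where 35.6% of all genes tested were. Nothing is read from that count, since Nlrp4c, at no more than 0.174 CPM in any control, passed the filter through the DKO libraries alone. The 4 were chosen for description after their values were seen. Nlrp4c, whose printed promoter holds 1 ETS core, went from 0.0898, 0.0588 and 0.174 CPM to 3.70, 3.71 and 4.13 (4.96 ± 0.30). Gm14393, with neither motif, went from 0.251, 0.372 and 0.411 CPM to 5.16, 5.68 and 6.88 (3.96 ± 0.22). Mkrn3, with 2 ETS cores, went from 2.5, 3.39 and 2.18 CPM to 5.06, 6.51 and 5.66 (0.98 ± 0.16, adjusted p = 1.71e-05, edgeR). Ajm1, an apical junction gene, changed by 0.85 ± 0.30 (adjusted p = 0.0167). With DOX in iETV2, 6 such genes were tested and only Gm14393 changed (1.26 ± 0.37, adjusted p = 0.0189), while Mkrn3 had 2.35, 2.82 and 3.03 CPM in controls and 2.51, 2.74 and 2.84 with DOX (0.00 ± 0.18). In the H188A line 5 were tested, and the lowest adjusted p was 0.190 (edgeR), for Nlrp4c at -0.74 ± 0.30.

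Genes of H3K9 methylation, none of which lay near an untreated-only region, changed at shares not far from all genes in iETV2. Of 27 tested, DOX raised 3 and lowered 6, where 27% of all genes changed, with a median log2 change of 0.03. In DKO, 15 were higher and 11 lower, where 69.3% of all genes changed, with a median of 0.17. In the H188A line the median was 0.01 and the lowest adjusted p was 0.164 (edgeR), for Jmjd1c. Suv39h1 went from 76.3, 81.3 and 77.4 CPM to 119, 115 and 118 with DOX in iETV2 (0.60 ± 0.07) and from 260, 268 and 260 to 114, 107 and 107 in DKO (-1.39 ± 0.04). Kdm4b and Kdm4c fell with DOX in iETV2, by 0.52 ± 0.07 and 0.44 ± 0.07 on the log2 scale. Setdb1, Suv39h2, Ehmt1, Ehmt2 and Trim28 had log2 changes between -0.05 and 0.09 there and none passed the test. In DKO, Setdb1 and Trim28 rose by 0.20 ± 0.04 and 0.21 ± 0.03, while Ehmt1 changed by -0.51 ± 0.04, Ehmt2 by -0.32 ± 0.05 and Suv39h2 by -0.45 ± 0.05.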

How the data were processed

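RNA was measured in 18 libraries and H3K9me3 in 6 ChIP-seq libraries. The deposited RNA tables hold whole-number read counts for each Ensembl gene. The region lists hold, per the file headers, ChIP and input counts, a p-value with its FDR (0.05 or less throughout), a log2 fold change and a score. The deposited regions consist of 200 bp windows; the sources used here do not name the tool that called them. The submitters' processing notes name, for ChIP, RNA or both, Bowtie, ChIPseeker, DiffBind, DESeq2 1.18.1, HTSeq 2.0.3, featureCounts 2.0.6, StringTie 2.2.1, Picard 3.0.0 and STAR 2.7.10b, with GRCm38 and mm10. Input libraries hold no regions and were not used.

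Regions were merged at 1 bp of overlap, which was checked against bedtools 2.31.1 on simulated data. Gene spans and promoters came from RefSeq (GRCm38.p6); about 82.0% of genes tested in iETV2 had a position. Each RNA comparison was fitted on its own 6 libraries in R 4.3.3 with edgeR 4.0.16 (filterByExpr, TMM, glmQLFit, glmQLFTest) and Benjamini-Hochberg adjustment over all tested genes; standard errors were taken as the size of the log2 change over the root of its F statistic. Genes named are those within 5 kb with the largest change per direction (up to 8 in iETV2, 5 elsewhere) among adjusted p under 0.05, average log2 CPM of at least 1, libraries that do not overlap, and a symbol other than Gm or Rik; regions named are the 5 longest, the 5 of highest ratio and up to 10 called in all 3 untreated libraries over coding genes. Other names were chosen after their values were seen. Members, lists and tests were chosen with earlier results of these data known. Same-numbered libraries of iETV2 deviated together (correlations 0.131, 0.435 and 0.508). Their total counts also ran in the same order in both groups, and the labels state no pairs, so pairing by number is possible but not established. The fits reported took the libraries as unpaired. Alternatives were DESeq2 (1.42.0), its size factors, other filters, a replicate block, single libraries left out, other FDR and merging rules, and other distances.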

Additional observations from a re-analysis of the deposited data

Results flagged for a closer look

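Among the named genes, Sh2b2 and Cldn4, both within 5 kb of an untreated-only region, had CPM that shifted in opposite directions with DOX in the 2 lines. Each DOX library lay on one side of all controls in iETV2 and on the other side in the H188A line. For Sh2b2 in the H188A line, the rule for naming genes required this separation. The share of all tested genes with such a pattern was not counted. The log2 change of Sh2b2 was -0.57 in iETV2 and 0.61 in the H188A line. That of Cldn4 was 0.39 in iETV2 and -0.12 in the H188A line, where adjusted p was 0.484 (edgeR). There its controls had 73.1, 74.1 and 73.9 CPM and its DOX libraries 53.7, 71.7 and 71.8, the latter close to the controls. These CPM are scaled to the library total only, without the TMM factors of the test. The difference between the lines was not tested.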

How the results depend on the processing

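The 802 untreated-only regions became 517 when those with a DOX region within 5 kb were left out and 132 when a call in all 3 untreated libraries was required; leaving out 1 library gave 286 to 2152. An FDR of 0.01 or 0.001 gave 827 and 846, merging up to 1 kb apart 719, and adding chromosome X 841. Within 50 kb instead of 5 kb, 222 of 718 tested genes changed in iETV2 (30.9%, against 29.5% of all tested genes with a position). The same counts were 20 of 707 in the H188A line (2.83%, against 3.13%) and 476 of 664 in DKO (71.7%, against 71.8%). At this distance the shares were thus near those of genes with a position. In the H188A line the 637 genes called became 423 with DESeq2's size factors, 979 with DESeq2, 2032 with no filter and 81 to 1839 with 1 library left out. Its 4 genes near untreated-only regions became 2, 8 and 32 with the first 3 settings, 7 with a filter of 1 CPM, and 0 to 29 with 1 library left out. A replicate block gave 263 and 0 there and 8380 and 115 in iETV2 (5939 and 98 without it). In DKO it gave 13926 and 171 (14153 and 170 without it). Same-number correlations were 0.01 to 0.03 in DKO and -0.08 to 0.27 in the H188A line, so pairing by number was not clear there. The block changed no call of a gene named from iETV2. No named gene reversed; 19 gene and setting combinations in the H188A line lost the call, and none did in iETV2 or DKO. The cause of these changes was not tested.

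The lists hold called regions only, so the level of H3K9me3 at an untreated-only region in a DOX library was not measured, and a missing call is not a level of 0. Input reads per kb of called region ran from 25.1 in untreated 3 to 37.6 in untreated 1, and limit the precision of every ratio.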
